A study of Mus musculus with 2 samples.

Results

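The interleukin-1 (IL-1) genes described here are the ligands *Il1a*, *Il1b* and *Il18*, the receptor antagonist *Il1rn*, the receptors *Il1r1*, *Il1r2* and *Il1rap*, and the inflammasome genes *Nlrp3*, *Casp1* and *Casp4*. These 10 genes were chosen by name, with earlier results of these data known, out of 20655 genes that could be named on the arrays. They were read by 13 probes. All 10 were well above background on both arrays, as were 16885 of the named genes. RNA was taken from RAW264.7 cells, a mouse macrophage-like line that the labels describe as BALB/c, male and adult, from the ascites of a tumor that Abelson murine leukemia virus induced. The cells received vehicle or IR-61 (10 μM), a near-infrared fluorescent small molecule, and both cultures were kept for 24 h in the same serum-containing DMEM. The labels name no inflammatory stimulus for either culture. Each condition was 1 culture of this line on 1 single-color Agilent array, so that no test between the conditions was possible, and no spread between cultures is known.

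IL-1α and IL-1β signal through the receptor IL-1R1, which must pair with the accessory protein IL-1RAcP. The receptor antagonist occupies IL-1R1 without signaling, and IL-1R2 binds the ligands as a decoy that lacks the signaling domain. Macrophages make IL-1β as an inactive precursor after stimulation, and an inflammasome, such as the one built on NLRP3, activates caspase-1 to cut it and the IL-18 precursor, while caspase-11, the product of *Casp4* in the mouse, senses cytosolic lipopolysaccharide. Arrays read mRNA only and carry no information on cutting or release.

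Each probe signal below is the background-subtracted intensity of the scanner, in arbitrary units, and signals of different probes were not compared with each other. The IR-61 array was brighter as a whole, with a 75th percentile of 10.79 on the log2 scale against 10.30 for vehicle. A difference is therefore the log2 signal with IR-61 minus that with vehicle, after this percentile was subtracted from each array. After this scaling the median difference over all 16885 genes was 0.10. Noise within an array was taken from probes that are printed 10 times, of which 329 with vehicle and 340 with IR-61 were well above background and entered the estimate. Their spots had an SD of 0.063 to 0.070 on the log2 scale for signals of 10 or more (log2), of 0.14 to 0.18 between 6 and 10, and of 0.30 to 0.35 under 6. The expected SD given with a difference is built from these values, or from the probe's own spots where at least 5 were used, as for *Il1b*, and it covers the spread between spots within an array only.

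*Il1b*, *Il1r2* and *Il1rn* were lower with IR-61 by 2-fold or more, and the other 7 members were within 2-fold. No member was higher by 2-fold. Over all genes measured on both arrays, 1.39% were lower by 2-fold or more and 1.99% were higher by as much. Of the 10 members, 8 were below 0, *Il1rap* among them on its brighter probe only, beside 38.8% of all genes measured. The median difference of the members was -0.34 beside the 0.10 over all genes. Without scaling between the arrays 4 of the 8 were above 0, and the medians were 0.15 and 0.59. The lower genes were thus a cytokine, its antagonist and its decoy receptor, while the signaling receptor and the NLRP3 and caspase genes stood nearer to the bulk of the array. The members were chosen with earlier results of these data known. The shares and medians over all genes are therefore given for reference only and do not test the set.

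**Figure D1:**
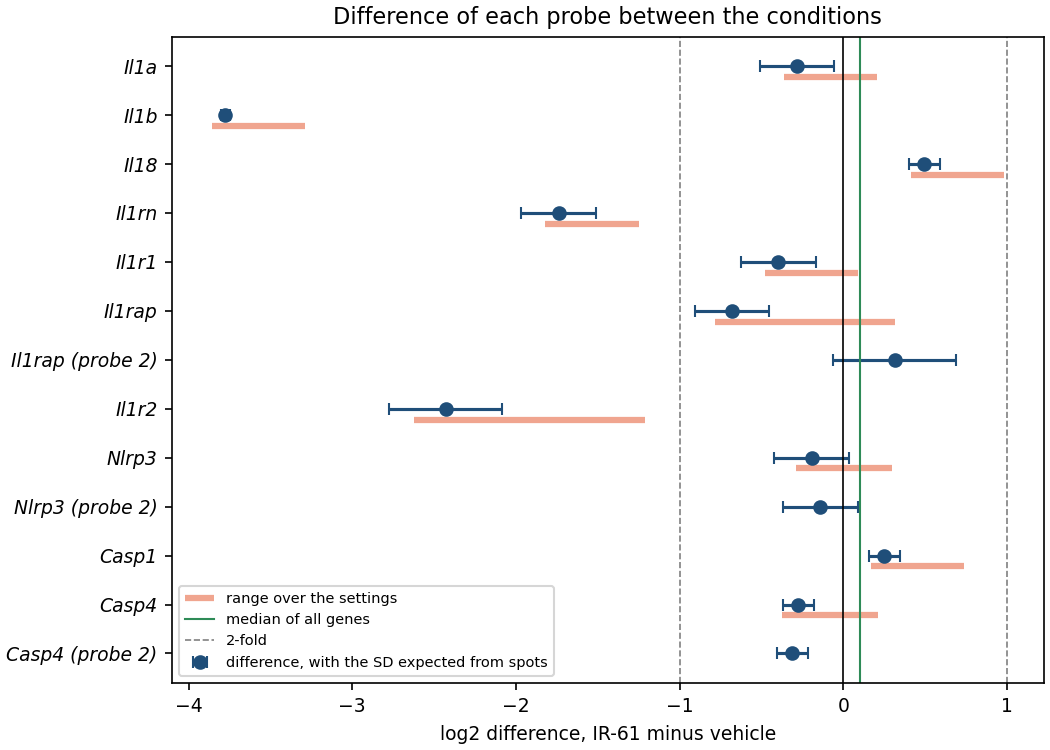
Log2 difference (IR-61 minus vehicle, after scaling to the 75th percentile of each array) for each probe of the 10 members. Points with bars give the difference and the expected SD from repeated spots of an array, pale bars the range over the ways of processing in which the gene was measured (for *Il1rap*, both probes), the green line the median of all genes and dashed lines 2-fold. *Il1b* (-3.78), *Il1r2* (-2.43) and *Il1rn* (-1.74) lie beyond the line, and the second probe of *Il1rap* lies on the other side of 0 from the first.

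RefSeq start sites of these genes were read on the mouse build GRCm38.p6, as the 250 bases before each start, because the members that were lower and those that were not sit partly side by side in the genome. All 10 members had at least 1 such window, and there were 15 windows in all. Capitals mark matches, on either strand, to 4 motifs that were searched: GGG, any 2 bases and TTTCC for NF-κB, TGANTCA for AP-1, TTGCNNAA for C/EBP and TATAAA for a TATA box. *Il1b* and its neighbour *Il1a* are shown because they are adjacent on chromosome 2 and gave unlike differences. The *Il1rn* window is that of its most upstream start, and *Casp4* is shown because it held the only NF-κB matches among the inflammasome members. The windows are *Il1b* at chr2:129371140-129371389 (minus strand), *Il1a* at chr2:129309973-129310222 (minus strand), *Il1rn* at chr2:24336610-24336859 (plus strand) and *Casp4* at chr9:5308599-5308848 (plus strand).
Il1b: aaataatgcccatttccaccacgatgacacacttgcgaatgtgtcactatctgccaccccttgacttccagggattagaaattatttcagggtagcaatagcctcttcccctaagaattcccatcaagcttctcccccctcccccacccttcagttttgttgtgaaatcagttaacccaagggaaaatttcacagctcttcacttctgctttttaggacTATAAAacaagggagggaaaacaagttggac
Il1a: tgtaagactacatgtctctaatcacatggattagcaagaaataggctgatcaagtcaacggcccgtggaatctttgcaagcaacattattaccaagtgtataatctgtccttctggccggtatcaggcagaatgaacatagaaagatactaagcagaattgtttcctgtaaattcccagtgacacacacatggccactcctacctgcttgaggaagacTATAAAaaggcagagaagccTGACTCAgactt
Il1rn: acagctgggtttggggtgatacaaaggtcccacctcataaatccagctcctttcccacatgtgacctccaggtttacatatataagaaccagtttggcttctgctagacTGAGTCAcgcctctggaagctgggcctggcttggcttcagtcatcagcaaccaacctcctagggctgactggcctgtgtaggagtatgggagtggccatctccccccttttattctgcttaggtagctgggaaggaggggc
Casp4: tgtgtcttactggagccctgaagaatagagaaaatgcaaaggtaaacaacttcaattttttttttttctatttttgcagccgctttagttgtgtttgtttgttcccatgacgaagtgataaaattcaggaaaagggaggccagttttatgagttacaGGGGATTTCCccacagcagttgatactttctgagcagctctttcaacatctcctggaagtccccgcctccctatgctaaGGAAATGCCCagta

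The *Il1b* and *Il1a* windows shared a TATAAA match, which began 31 and 32 bases before the start. *Il1a* also held an AP-1 match at 12 bases before its start. The *Il1rn* window shown held an AP-1 match at 141 bases before the start, and a window of another *Il1rn* start held the NF-κB match GGGTTTTTCC. *Casp4* held NF-κB matches at 93 and 14 bases before the start. No letters of the 4 motifs were found in the windows of *Il1r2*, *Nlrp3*, *Casp1* and *Il1rap*, while an *Il1r1* window held a C/EBP match. The *Il18* window held a TATAAA match on the opposite strand (TTTATA) that began 175 bases before the start, further away than those of *Il1b* and *Il1a*. Over 32851 RefSeq windows of the same length, 1.41% held the NF-κB letters, 6.75% those of AP-1, 9.56% those of C/EBP and 12.4% TATAAA. These matches describe letters, and no binding was measured.

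*Il1b*, the gene of IL-1β, gave a signal of 4057 with vehicle and of 415 with IR-61. Its difference was -3.78 (expected SD 0.028), which is 13.7-fold lower. Of the 10 spots of its probe on each array, 8 were used and 2 carried an outlier mark. The vehicle spots ranged from 3829 to 4354 with a median of 4091, and the IR-61 spots from 396 to 438 with a median of 416. No spot of one array overlapped with a spot of the other. The marked spots read 3860 to 3895 with vehicle and 395 to 402 with IR-61, and with these spots kept the difference was again -3.78. Ordered from the lowest difference among the 16885 genes, *Il1b* was in place 2. The genes directly beside it in this order were *Acod1* (-4.16), which makes itaconate and came first, and *Spata13* (-3.64) in place 3.

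**Figure D2:**
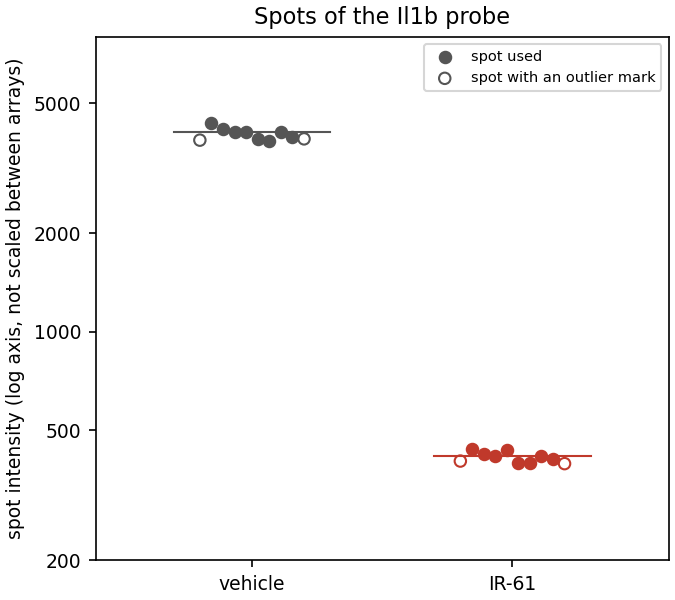
Signal of each printed spot of the *Il1b* probe on the vehicle and the IR-61 array (log axis, arbitrary units), with the median of the used spots as a line and the spots left out for an outlier mark as open circles. The used spots lie between 3829 and 4354 with vehicle and between 396 and 438 with IR-61, with a gap between the arrays that no spot enters.

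*Il1a*, the gene of IL-1α, had a signal of 855 with vehicle and of 987 with IR-61, a difference of -0.28 (expected SD 0.23). The adjacent genes *Il1a* and *Il1b* therefore differed in their response by 3.49 on the log2 scale (expected SD 0.23), or 11.3-fold, and this distance does not depend on the constant subtracted from an array. *Ckap2l*, on the other side of *Il1a*, stood at -0.17.

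*Il18*, the gene of the other cytokine that caspase-1 cuts, stood on the other side of 0. Its signal was 3733 with vehicle and 7378 with IR-61, and its difference was 0.49 (expected SD 0.094), or 1.41-fold higher. Ordered from the highest difference, it was in place 2329 of 16885. The distance from *Il18* to *Il1b* was 4.27 (expected SD 0.099), and these genes of caspase-1 substrates lay on opposite sides of 0.

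*Il1rn*, which encodes the receptor antagonist, had a signal of 426 with vehicle and of 179 with IR-61. Its difference was -1.74 (expected SD 0.23), or 3.34-fold lower, in place 52 from the lowest. The agonist *Il1b* was lower than the antagonist *Il1rn* by a further 2.04 in difference (expected SD 0.23), which is 4.11-fold. *Il1rn* in turn was lower than *Il1a* by 1.46 in difference (expected SD 0.32). Its neighbours on chromosome 2, *Il1f10* (the gene of IL-38) and *Psd4*, stood at 0.12 and -0.48. *Il1f10* was well above background on both arrays, but with low signals of 18.7 and 28.5.

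**Figure D3:**
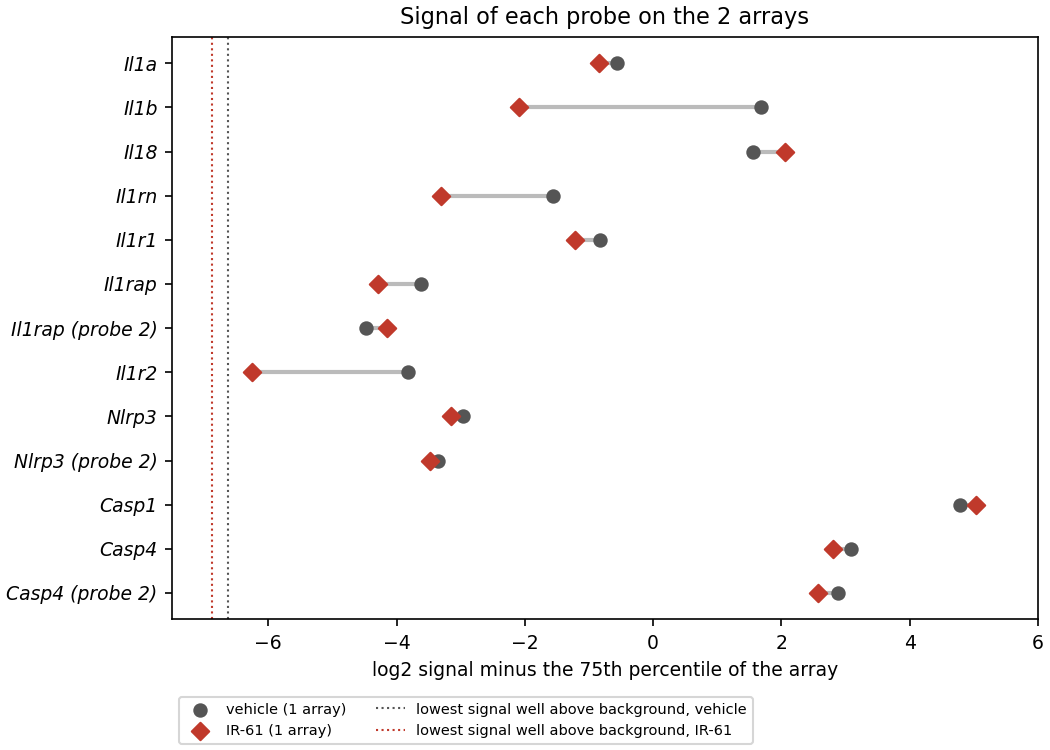
Log2 signal of each probe of the members after subtraction of the 75th percentile of the array, with 1 value for vehicle (circle) and 1 for IR-61 (diamond), and dotted lines at the lowest signal well above background on each array. *Il1b* went from 1.68 to -2.09, *Il1r2* lay near the dotted lines with IR-61, and *Casp1*, *Il18* and the second probe of *Il1rap* were higher with IR-61.

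Among the receptors, the decoy receptor gene *Il1r2* had a signal of 89.2 with vehicle and of 23.3 with IR-61. Its difference was -2.43 (expected SD 0.35), or 5.38-fold lower, in place 17 from the lowest. The IR-61 signal lay close to the limit of detection, at 1.55 times the lowest signal called well above background there, and the size of the difference moved with the processing. With another background correction (normexp, which models signal and background together) the difference was -1.21, and with a stricter limit on dim signals it became a bound of -1.06 or lower.

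*Il1r1*, the signaling receptor gene, had a signal of 714 with vehicle and of 760 with IR-61, a difference of -0.40 (expected SD 0.23). *Il1r2*, *Il1r1* and *Il1rl2* follow each other on chromosome 1, and *Il1r2* was lower than *Il1r1* by 2.03 in difference (expected SD 0.41), or 4.09-fold. *Il1rl2*, the receptor gene for IL-36, stood at -0.56, and *Map4k4*, on the far side of *Il1r2*, at -0.54. The probe of *Il1rl2* was well above background, but with low signals of 22.1 and 21.0 (expected SD of its difference 0.46). With normexp the distance between *Il1r2* and *Il1r1* was 0.83, or 1.77-fold, so that its size, like that of the *Il1r2* difference, rests on the background correction.

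*Il1rap*, the gene of the accessory protein, was read by 2 probes that are listed under different transcripts and did not give the same sign. The first went from 103 to 90.5, a difference of -0.68 (expected SD 0.23). The second went from 57.0 to 99.4, a difference of 0.31 (expected SD 0.38). The probes differed by 0.99 on the log2 scale, 2.26 times the expected SD of that distance. No direction is therefore given for *Il1rap*.

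The inflammasome members were all within 2-fold. *Nlrp3*, the sensor gene, went from 162 to 199 on its brighter probe and from 124 to 158 on the other, and the differences were -0.19 and -0.14 (expected SD 0.23 each). *Casp4* went from 10720 to 12418 and from 9375 to 10594, with differences of -0.28 and -0.31 (expected SD 0.094 each). Both genes were below 0 on each of their probes, and the probes of a gene lay closer together than the noise expected between spots. Without scaling between the arrays, *Il1a* (0.21), *Il1r1* (0.090), *Nlrp3* (0.30) and *Casp4* (0.21) were above 0, so that their direction rests on the scaling. Relative to the median over all genes, they were lower in each of the 14 ways of processing that were computed. A constant subtracted from an array cancels in this comparison, and some of the ways leave the value of a gene unchanged. The 14 ways are therefore not independent of each other.

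*Casp1*, the gene of the caspase that cuts the precursors, was bright on both arrays, with 35028 for vehicle and 58427 for IR-61. Its difference was 0.25 (expected SD 0.094), or 1.19-fold higher. *Casp1*, *Casp4* and *Casp12* follow each other on chromosome 9, at 0.25, -0.28 and 0.61. *Casp12*, related to the inflammatory caspases, was dimmer, at 55.4 and 118. None was past 2-fold after scaling, whereas without scaling *Casp1* (0.74), *Casp4* (0.21) and *Casp12* were all above 0 and *Casp12* was higher by more than 2-fold.

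**Figure D4:**
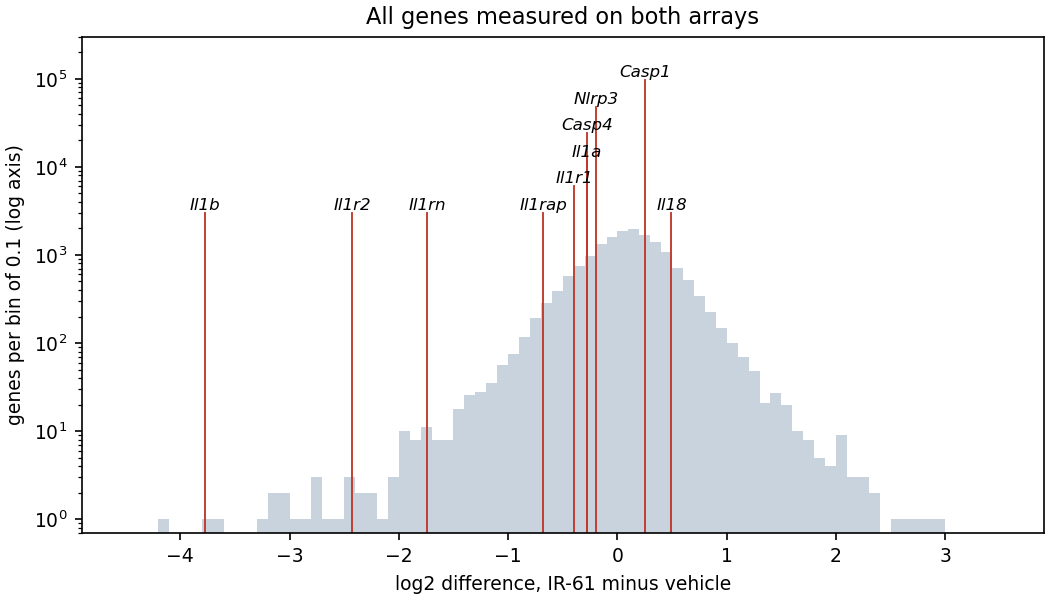
Number of genes (log axis) per bin of 0.1 in log2 difference, IR-61 minus vehicle, for the 16885 genes measured on both arrays, with the 10 members as vertical lines. The distribution has its median at 0.10, and *Il1b*, *Il1r2* and *Il1rn* stand far in its lower tail. The other 7 were within 2-fold, the lowest of them *Il1rap* on its brighter probe (-0.68, place 662 from the lowest).

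Beyond the members, 66 further genes of the pathway were listed by function, of which 59 were measured on both arrays. Of the 59, 4 were lower by 2-fold or more, none was higher by as much, and the median difference was -0.15. Over all genes measured, 1.39% were lower and 1.99% higher by as much, and the median was 0.10. The 8 housekeeping genes had a median of -0.13, close to that of the 59. Among the other ligands, *Il33*, an alarmin gene, went from 122 to 154 (-0.15) and *Il1f10* stood at 0.12, and neither was past 2-fold. The IL-36 genes, named *Il1f5*, *Il1f6*, *Il1f8* and *Il1f9* on the arrays, were not well above background on at least 1 array. *Il1f6* read as a bound, at least 1.03-fold higher with IR-61.

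Among the other receptor and binding protein genes, 7 of 8 were measured and none was past 2-fold. The highest was *Il18bp*, the gene of the soluble protein that neutralizes IL-18, which went from 458 to 1124 (0.81, expected SD 0.19), and the lowest was *Il1rl2* (-0.56). *Il18* and *Il18bp*, a cytokine and its inhibitor, were thus both above 0, whereas *Il1b* and *Il1rn* were both below it. All 17 genes of receptor signaling were measured, and all were within 2-fold on their brightest probe, with a median of -0.19. They reached from *Irak3* (-0.71), which encodes the inhibitory kinase IRAK-M, to *Ube2n* (0.65), whose product builds K63-linked ubiquitin chains. The second probe of *Ube2n* went from 1698 to 1959 (-0.28, expected SD 0.094), so no direction is given for that gene. *Irak2*, a kinase gene of the same list, stood at -0.39 on its brighter probe, but its dimmer probe went from 482 to 260 (-1.38, expected SD 0.23), past 2-fold. *Irak1* read 0.0020 on its brightest probe and -0.74 and -0.60 on the others. *Map3k7* read 0.32 against -0.043 and -0.66, and *Tollip* 0.081 against 0.064 and -0.48. No direction is given for these 3 genes either.

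Among the other sensor genes, 2 of 13 measured were lower by 2-fold or more, beside 1.39% of all genes. *Mefv*, the pyrin gene, went from 2855 to 1053 (-1.93, expected SD 0.094), and its second probe gave -1.37. *Nod2*, which encodes a sensor of muramyl dipeptide, went from 644 to 407 (-1.15, expected SD 0.23). It passed the 2-fold limit by less than this SD, and was within 2-fold with normexp (-0.996) and without scaling (-0.66). These sensors were further from 0 than *Nlrp3*, and the 11 others were within 2-fold.

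None of the 6 other genes of the adaptor, caspase and pore list was past 2-fold, and they reached from *Gsdmd* (-0.26), the gene of the pore-forming gasdermin D, to *Casp12* (0.61). *Pycard*, the gene of the adaptor ASC, had a bright probe, with 15680 for vehicle and 24271 for IR-61 (0.14), although RAW264.7 cells are known for lacking the ASC protein. Among the regulators, 2 of 14 measured genes were lower by 2-fold or more, beside 1.39% of all genes. *Txnip*, whose product inhibits thioredoxin and has been tied to NLRP3, went from 7390 to 4051 (-1.36, expected SD 0.094) with -1.34 on its second probe. *Gbp2*, an interferon-inducible GTPase gene, went from 1736 to 1169 (-1.06, expected SD 0.094), which is close to the 2-fold limit.

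**Figure D5:**
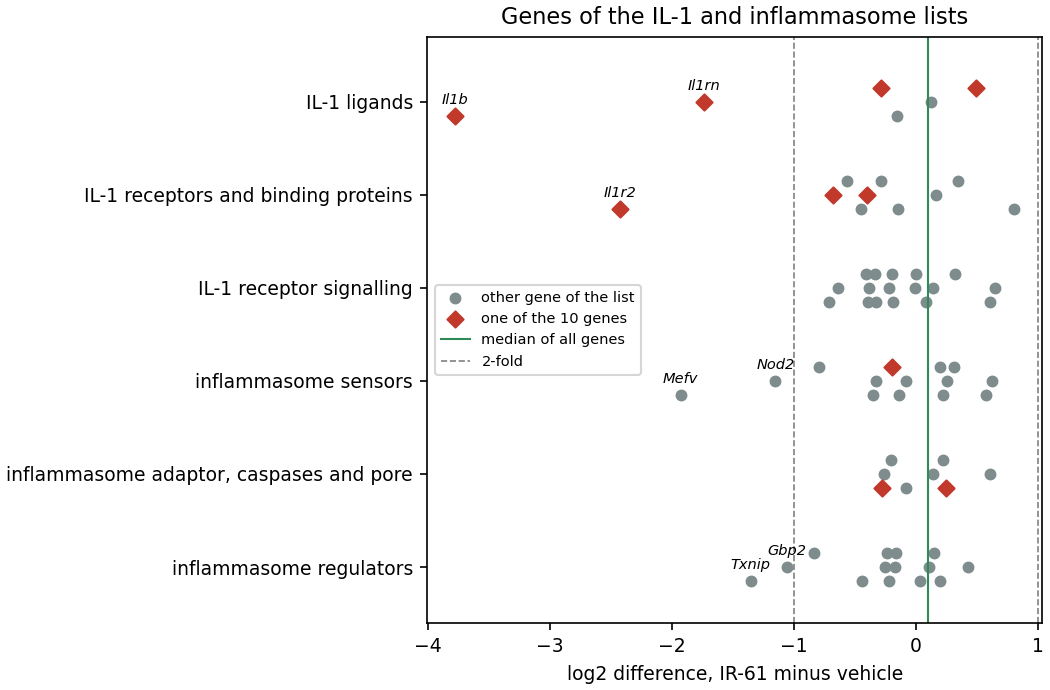
Log2 difference (IR-61 minus vehicle) of the genes of 6 pathway lists that were measured on both arrays, with members and other genes marked apart and dashed lines at 2-fold. Besides *Il1b*, *Il1r2* and *Il1rn*, the genes *Mefv*, *Nod2*, *Txnip* and *Gbp2* lie below the lower line, and no gene lies above the upper one.

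The label was checked against marker genes of macrophages and of other cells. Of 10 macrophage markers, 9 had a named probe and all 9 were well above background, with a summed signal of 326533 with vehicle and of 532034 with IR-61 and differences from -0.83 to 1.03. All 5 fibroblast markers (*Col1a1*, *Col1a2*, *Dcn*, *Lum* and *Pdgfra*) were also well above background, with summed signals of 59718 and 104718 and differences from -0.09 to 0.62. For the other lists, the signals summed over all markers with a named probe were 2431 and 3538 for 5 T cell markers, 907 and 746 for 5 B cell markers, 12036 and 20282 for 5 neutrophil markers, 373 and 510 for 4 dendritic cell markers and 262 and 268 for 4 epithelial markers. All T and B cell markers were well above background on both arrays, as were 4 of the neutrophil, 2 of the dendritic cell and 2 of the epithelial markers. These sums are given for each list between the arrays and set no order among lists. Of the B cell markers, *Ms4a1* and *Cd79b* stood at -1.46 and -1.09. The part of these cells or signals in the *Il1r1*, *Il33* or *Il1b* values was not tested, and in a bulk culture fewer cells of a type and less RNA per cell cannot be told apart. The 8 housekeeping genes had a median difference of -0.13, and they reached from -0.48 (*Ywhaz*) to 0.80 (*Hprt*).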

How the data were processed

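The authors deposited 1 scanner file per array with the background-subtracted intensity of each spot and 0/1 flags, and a table of log2 values per probe, whose making the sources used here do not give. The quartiles of both its columns were equal (4.59, 7.15 and 10.66). Per the file headers, Feature Extraction 11.0.1.1 made the intensity values, while the submitters' processing notes name version 11.0.0.1.

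Control spots and outlier spots (124 with vehicle, 139 with IR-61) were left out, log2 intensities were averaged over the spots of a probe, and each array was scaled by subtracting its 75th percentile. Of 39429 probes, 77.6% with vehicle and 81.2% with IR-61 were well above background, and none was saturated. By RefSeq accession, 27234 probes were named through a gene table of GRCm38.p6, used for names and neighbours only because the array design names another build. Some symbols were matched through synonyms (*Gm12250* for *Irgb10*, for example). *Nlrp6*, *Cd68* and *Ly6g* had no probe named this way and were not analysed here. A gene took its brightest probe. A gene not well above background on 1 array got a bound, set by the lowest signal well above background. Promoter windows came from RefSeq.

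Named were all members, the genes beside *Il1b* in rank, and from each list the genes past 2-fold or with a bound, otherwise the highest and the lowest. Others (genome neighbours, second probes, *Pycard*, *Il33*, *Irak1*, *Irak2*, *Map3k7*, *Tollip*, *Ms4a1* and *Cd79b* among them) were named after their values were seen. The members and lists were chosen with earlier results of these data known. No test was run, because each condition had 1 array, and the number of arrays limits the precision. Called means past 2-fold.

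Alternatives were other scalings, the deposited log2 values, normexp (offset 50, on median signals, since no mean signal is in the files), outlier spots kept, a spatial trend removed, the mean over probes, no filter or a filter at 4 times the lowest signal, and a 3-fold limit. Chosen after seeing the data were the dimmer probe of *Il1rap*, *Nlrp3* and *Casp4*, and the median background for 4 IR-61 spots in normexp. The steps were run on simulated arrays, built from the vehicle signals with noise between spots, a constant shift and set changes. Both simulated arrays carried the background flags of vehicle, so this does not check the bounds or the spread between cultures. Python 3.11.15, numpy 2.4.6, pandas 2.3.3, statsmodels 0.14.6, matplotlib 3.10.9, R 4.3.3 and limma 3.58.1 were used.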

Additional observations from a re-analysis of the deposited data

How the results depend on the processing

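*Il1b* and *Il1rn* were lower by 2-fold or more under all 13 alternatives that gave member values (-3.86 to -3.29 and -1.82 to -1.25), and *Il1r2* under the 12 in which it was measured (-2.62 to -1.21). Each of these genes had 1 probe, so that some alternatives, such as the mean over probes, could not change its value. Without scaling, the median over all genes moved from 0.10 to 0.59 and that over the members to 0.15. There, the counts past 2-fold outside the members became 1 receptor list gene (*Il18bp*), 2 signaling genes (*Chuk* and *Ube2n*), 2 sensors (*Naip1* and *Naip6*) and 1 caspase (*Casp12*) higher, and 1 sensor (*Mefv*) and 0 regulators lower. Over all genes, 12.8% were higher and 0.43% lower by 2-fold or more without scaling. With normexp 1 sensor was lower, beside 0.88% of all genes, since *Nod2* read -0.996. With no filter on dim probes 1 ligand gene was higher (*Il1f6*) and the lower regulators were 3 in place of 2 (*Usp50* added). In that setting 4.46% of all genes were higher and 2.13% lower by as much. At 3-fold, 1 sensor (*Mefv*) and 0 regulators were lower, since fewer genes pass a higher limit. Over all genes, 41.2% of those past 2-fold were lower, against 54.2% with median scaling, 52.1% with quantile normalization, 50.9% with loess, 51.4% in the deposited log2 values, 54.6% with normexp and 3.23% without scaling. The counts lower and higher were 235 and 336, against 72 and 2156 without scaling, 149 and 124 with normexp and 440 and 921 with no filter. The cause of these shifts between settings was not tested. Signals near background limit *Il1r2* and *Il1f10*. No paired analysis was possible because there was a single array of each kind.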
